A study of Homo sapiens with 40 samples.

Results

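The genes described here are the D-type cyclins, the G1 kinases they activate, the kinase inhibitors and the retinoblastoma protein, taken as a list of 9 genes: CCND1, CCND2, CCND3, CDK4, CDK6, CDKN1B, CDKN2C, RB1 and E2F1. A probe was counted as a member when the probe table paired it with 1 of these symbols and no other. This gave 22 of the 15246 probes on the array and 7 of its 4604 named genes: 2 probes each for CCND1, CCND2, CDK4 and CDKN1B, 4 each for CCND3 and RB1, and 6 for CDK6. Their Entrez gene numbers are 595 for CCND1, 894 for CCND2, 896 for CCND3, 1019 for CDK4, 1021 for CDK6, 1027 for CDKN1B and 5925 for RB1. CDKN2C and E2F1 were not analysed here.

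D-type cyclins are made when a cell receives growth signals, and each binds CDK4 or CDK6 to form an active kinase. The kinase phosphorylates RB1, which then releases E2F transcription factors, and E2F in turn switches on the genes for DNA synthesis. CDKN2C (p18) blocks CDK4 and CDK6 directly and CDKN1B (p27) blocks cyclin E and cyclin A kinases. Raised expression of a D cyclin is a common feature of multiple myeloma, and CCND1 is joined to the immunoglobulin heavy chain locus in part of the cases.

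The study placed doxycycline-inducible hairpins against CASP10, the gene of the protease caspase-10, in human cell lines with a retroviral vector and puromycin selection, to find which genes respond in myeloma. Each of the 40 arrays was a 2-colour lymphochip, a spotted cDNA array rich in lymphoid genes, whose Cy5 channel held RNA of cells given doxycycline (20 ng/ml) for 24 to 120 hours. The sources used here do not say whether the puromycin-selected cells were pools or clones. The myeloma lines were SKMM1, H929 and KMS12, which are malignant plasma cells, and the B cell lymphoma lines OCI-Ly7 and OCI-Ly19 served as controls.

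SKMM1 with shCasp10-2 was set against induced SKMM1 with a control shRNA on 4 arrays (days 1 to 4), so that both channels held doxycycline-treated cells. The other 36 arrays set induced cells against uninduced cells of the same line, hairpin and day, which carried the vector and had no doxycycline. These were SKMM1 with shCasp10-2 (12 arrays, 3 courses), H929 with shCasp10-3 (4 arrays, 1 course), H929 with shCasp10-2 (8 arrays, 2 courses), KMS12 with shCasp10-3 (4 arrays), KMS12 with shCasp10-2 (4 arrays), OCI-Ly7 with shCasp10-2 (2 arrays) and OCI-Ly19 with shCasp10-2 (2 arrays). A course is the set of days of 1 line, hairpin and repeat, and it was the replicate. With shCasp10-2, the titles of day 1 in SKMM1 and of days 1 and 5 in H929 give no repeat number. The SKMM1 titles of day 5 read repeat 1 and repeat 2, but their arrays are counted here under repeats 2 and 3 respectively. These days were assigned to a course by runs of array database numbers, which had gaps within SKMM1 repeat 2 and H929 repeat 2. The days so assigned did not enter the course means of days 2 to 4. The design text states biological repeats for H929 and SKMM1. Days of a course may share a culture, so a p-value measures only the spread between these samples, which may be technical.

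Values are log ratios of the induced over the other channel, read as log2; the base is not stated, and the Cy5 over Cy3 direction is likely but not stated. A log ratio gives no level, so the genes cannot be ranked by expression and the lines' identity cannot be checked on markers. In bulk RNA, fewer cells with a transcript and less transcript per cell cannot be told apart. No intensities were used, and the number of arrays limits the precision.

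A set of 12 arrays stood apart and is called wide here, because over 10% of their probes had a log ratio beyond 3 in size. They were the 4 arrays of SKMM1 repeat 2 (days 2 to 5), day 4 of SKMM1 repeat 3, days 2 and 3 of H929 with shCasp10-3, days 1 and 2 of H929 repeat 1, days 1 and 2 of KMS12 with shCasp10-2 and day 3 of OCI-Ly7. On 10 of them the tail was negative, and on the SKMM1 repeat 3 and OCI-Ly7 arrays it was positive. Arrays that were not wide could still hold a smaller tail, such as 8.53% of probes above 3 on day 5 of SKMM1 repeat 3. Of 780 pairs of arrays, 87 had a Pearson's r over all probes below -0.3. The lowest was -0.517, for the pair of SKMM1 samples of day 5, which the labels give the same dyes. Their titles read repeats 1 and 2, and they are counted here under repeats 2 and 3. The direction of SKMM1 repeats 2 and 3 is therefore not settled, and results are also given with the sign of either course turned. The target CASP10 averaged -0.63 over the 8 myeloma courses (SD 0.59, n = 8), and -0.25 without the wide arrays (SD 0.19, n = 7). In SKMM1 repeat 2 it averaged -1.62, so a turned sign would place it above 0 in that course. The arrays labelled OCI-Ly7 went against their label, with CASP10 at 2.04 and 1.50 on days 3 and 4. Other courses also lacked a fall in part: the course mean was 0.01 in SKMM1 repeat 3, with 0.35 on its wide day 4 array, and single arrays were above 0 in H929 with shCasp10-3 (0.03 on day 4), H929 repeat 2 (0.13 on day 2) and OCI-Ly19 (0.12 on day 3).

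No member passed the test of the myeloma response, the mean over the 3 lines of the induced against the uninduced cells. On course means of days 2 to 4, limma called 0 of 7 members, where it called 0 of all 9681 features (0%), and 467 features but 0 members had an unadjusted p under 0.05. The estimates were -0.29 for CCND1 (SE 0.42), -0.14 for CCND2 (SE 0.11), -0.28 for CCND3 (SE 0.20), -0.12 for CDK4 (SE 0.14), -0.65 for CDK6 (SE 0.53), 0.12 for CDKN1B (SE 0.12) and -0.07 for RB1 (SE 0.11). Thus 6 of 7 were below 0, while 81.3% of all features were below 0 and the median of all features was -0.27. The member ranked highest by p was CCND3, at place 2753 of 9681.

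Without the wide arrays, the same fit gave 0.21 for CCND1 (SE 0.15), -0.01 for CCND2 (SE 0.10), -0.13 for CCND3 (SE 0.10), -0.27 for CDK4 (SE 0.13), -0.03 for CDK6 (SE 0.21), 0.15 for CDKN1B (SE 0.09) and -0.04 for RB1 (SE 0.07). CCND1 changed sign and CDK6 moved close to 0, while CDK4 lay further below 0 and CDKN1B stayed above it. The median of all features was then 0.02, and 0 of 7 members had an unadjusted p under 0.05. With all arrays kept and each centred on its median, CDK4 was -0.03 (SE 0.21) and RB1 turned to 0.03 (SE 0.15). When single arrays that were not wide were fitted with the course as a random block, 5.13% of all features passed and again 0 of 7 members, with 1 of them, CDK4, at an unadjusted p under 0.05. CDK4 was then -0.24 (SE 0.10, limma adjusted p = 0.158) and CDKN1B 0.13 (SE 0.06, adjusted p = 0.242).

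**Figure D1:**
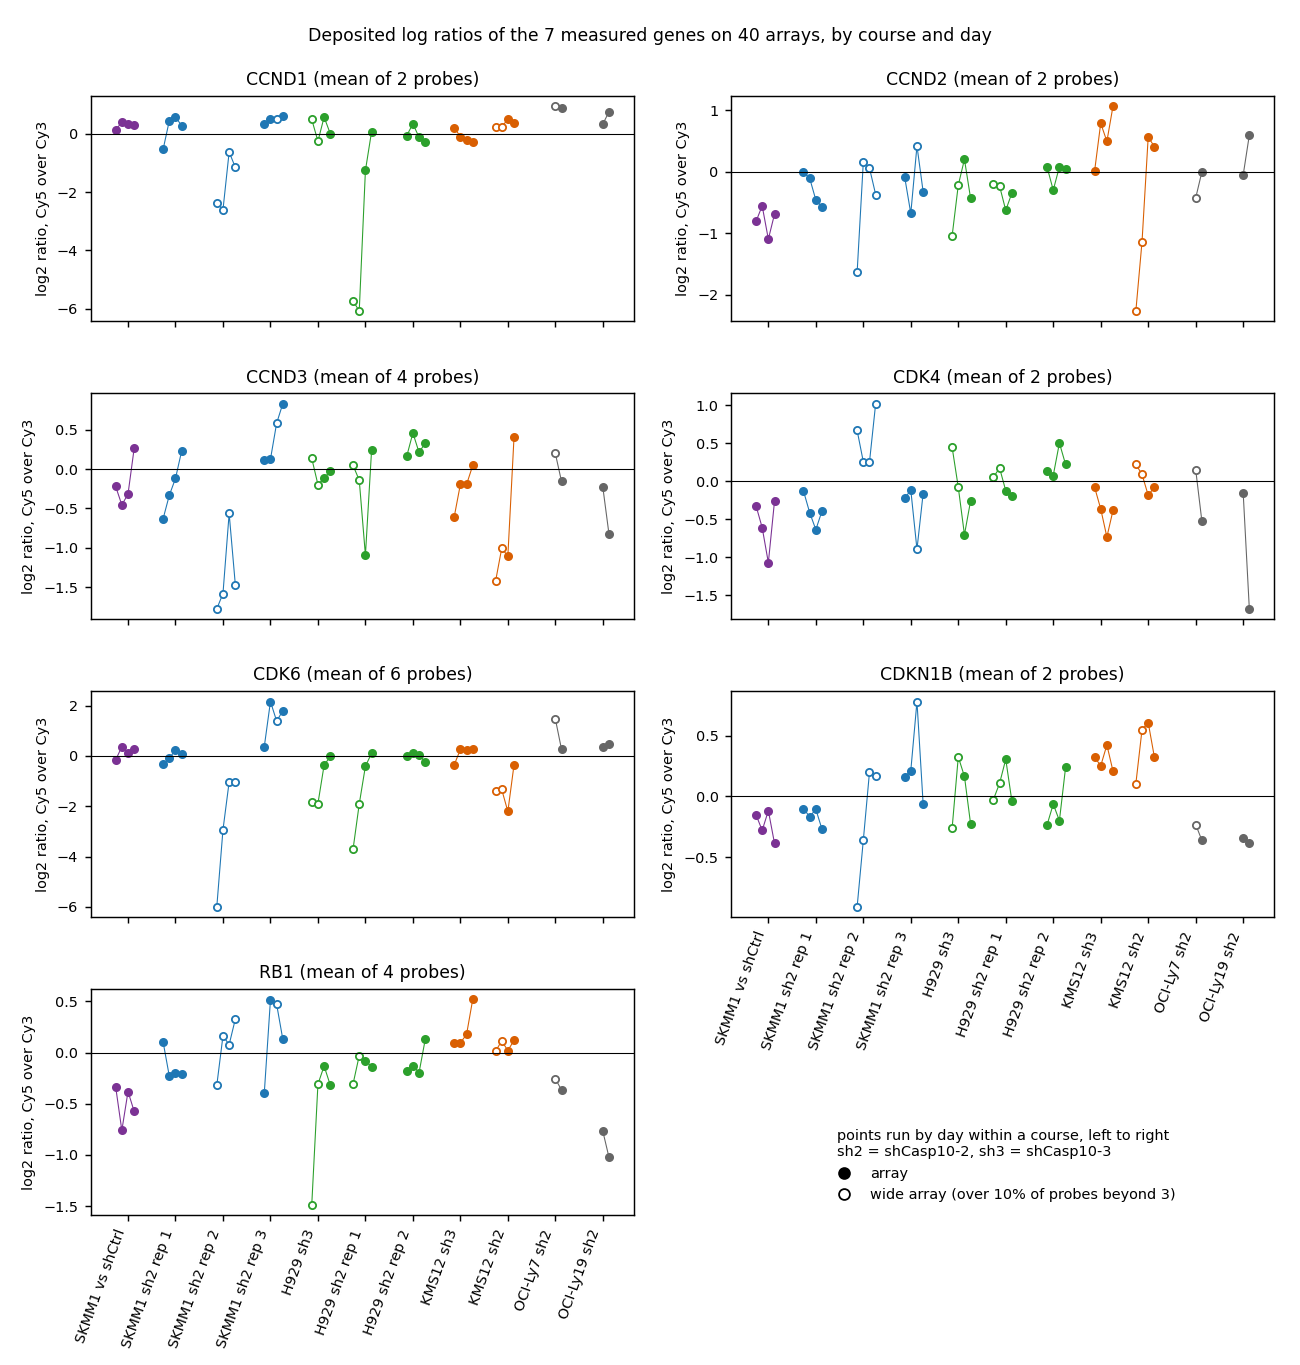
Log2 ratios of the 7 measured genes (mean of the gene's probes, vertical axis, scaled per gene) on each of the 40 arrays, grouped by course on the horizontal axis; points within a course run by day and open points are wide arrays. CCND2, CDK4 and RB1 lie below 0 on all 4 arrays against the control shRNA, CDKN1B lies above 0 on all 8 KMS12 arrays, and the lowest CCND1 and CDK6 points are open.

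CCND1 encodes cyclin D1, the cyclin joined to the immunoglobulin locus in KMS12. Against the control shRNA it was 0.14, 0.39, 0.33 and 0.32 on days 1 to 4 in SKMM1. Against uninduced cells in SKMM1 it was -0.53, 0.45, 0.59 and 0.27 in repeat 1 (days 1 to 4), -2.37, -2.61, -0.62 and -1.15 in repeat 2 (days 2 to 5), and 0.32, 0.50, 0.51 and 0.61 in repeat 3 (days 2 to 5). Only repeat 2, all of whose arrays were wide, was below 0 on every day.

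In H929, CCND1 was 0.49, -0.26, 0.57 and 0.004 with shCasp10-3 (days 2 to 5), and -0.06, 0.34, -0.12 and -0.29 in repeat 2 (days 2 to 5) with shCasp10-2. On days 1 to 4 of H929 repeat 1 it was -5.74, -6.08, -1.26 and 0.08. The first 2 of these 4 arrays were wide, and on the third 6.38% of all probes were below -3, so the extreme CCND1 values stand where much of the array was extreme. KMS12 showed no such values: CCND1 was 0.21, -0.10, -0.23 and -0.28 with shCasp10-3 (days 2 to 5) and 0.22, 0.24, 0.50 and 0.37 with shCasp10-2 (days 1 to 4).

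The 2 CCND1 probes hardly moved together. Their r over the 28 arrays that were not wide, each array centred on its median, was 0.08, where the points share arrays and courses. In the myeloma response without the wide arrays, the first probe gave 0.19 (SE 0.26) and the second 0.23 (SE 0.09, limma adjusted p over all probes = 0.286). CCND1 was above 0 on all 4 lymphoma arrays, at 0.96 and 0.87 in OCI-Ly7 (days 3 and 4) and 0.33 and 0.76 in OCI-Ly19 (days 3 and 4). On course means of the lymphoma lines 36.6% of all features were below 0, with a median of 0.19.

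CCND2 encodes cyclin D2, the D cyclin that many myelomas without a CCND1 translocation express. Against the control shRNA its log ratios were -0.81, -0.56, -1.10 and -0.69 on days 1 to 4 in SKMM1. Against uninduced SKMM1 cells it was -0.01, -0.10, -0.46 and -0.57 in repeat 1 (days 1 to 4) and -0.08, -0.68, 0.42 and -0.33 in repeat 3 (days 2 to 5). Every CCND2 value of the control course lay below 0, and the repeat 3 array above 0 was the wide one.

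In SKMM1 repeat 2 CCND2 was -1.64, 0.16, 0.06 and -0.37 on days 2 to 5. In H929 it was -1.05, -0.22, 0.20 and -0.44 with shCasp10-3 (days 2 to 5), and -0.20, -0.23, -0.63 and -0.34 in repeat 1 (days 1 to 4) and 0.08, -0.30, 0.08 and 0.04 in repeat 2 (days 2 to 5) with shCasp10-2. H929 values lay on both sides of 0 and within the range of the SKMM1 values.

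KMS12 held both the highest and the lowest CCND2 values of the 40 arrays. There it was 0.004, 0.79, 0.49 and 1.07 with shCasp10-3 (days 2 to 5), and -2.27, -1.14, 0.57 and 0.41 with shCasp10-2 (days 1 to 4). Of the arrays that were not wide, all 7 SKMM1 arrays against uninduced cells were below 0 and all 6 KMS12 arrays above 0. These sets did not overlap, as was so for 2.32% of all features and for no other member, but their nearest values were -0.01 and 0.004, and the 2 wide KMS12 arrays were the lowest of the line. With the sign of repeat 3 turned its 3 arrays lay above 0 and the CCND2 sets overlapped; CDKN1B was then the 1 member that did not overlap, as were 0.279% of features.

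The test of SKMM1 minus KMS12 gave -0.51 for CCND2 on course means of all arrays (SE 0.29, limma adjusted p = 1), where 0% of features were called and 75 had an unadjusted p under 0.05. Without the wide arrays it gave -0.84 on course means (SE 0.27, adjusted p = 0.241). On single arrays with the course as a block it gave -0.83 (SE 0.24, adjusted p = 0.0512), where 4.85% of all features and 0 of 7 members passed and 3 members had an unadjusted p under 0.05. With each array also centred on its median, CCND2 alone of the members passed, at -1.0 (SE 0.24, adjusted p = 0.048), where 3.21% of features passed. The centred course means without the wide arrays gave -1.02 (SE 0.26, limma adjusted p = 0.254), and 0 of 7 members and 0% of features passed, with 1858 features and 2 members at an unadjusted p under 0.05. With the sign of SKMM1 repeat 3 turned the uncentred difference was -0.48 (adjusted p = 1), and on course means of all arrays it was -0.19 with the sign of repeat 2 turned (adjusted p = 0.755).

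The 2 CCND2 probes had an r of 0.73 over the 28 arrays. Their myeloma responses without the wide arrays were -0.08 (SE 0.10) and 0.06 (SE 0.15). In the lymphoma lines CCND2 was -0.43 and -0.005 in OCI-Ly7 (days 3 and 4) and -0.06 and 0.60 in OCI-Ly19 (days 3 and 4).

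CCND3 encodes cyclin D3, which germinal centre B cells of mice need. It was -0.22, -0.46, -0.32 and 0.27 on days 1 to 4 against the control shRNA. Against uninduced SKMM1 cells it was -0.63, -0.33, -0.12 and 0.23 in repeat 1 (days 1 to 4), -1.78, -1.58, -0.56 and -1.47 in repeat 2 (days 2 to 5), and 0.12, 0.13, 0.58 and 0.83 in repeat 3 (days 2 to 5). The 3 SKMM1 courses thus disagreed in direction, with repeat 2 wholly below 0 and repeat 3 wholly above.

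In H929, CCND3 ranged from -1.10 to 0.46 over 12 arrays with a median of 0.09, and in KMS12 from -1.43 to 0.41 over 8 arrays with a median of -0.40. The gene mean of CCND3 rests on probes that do not move together. One probe had an SD of 1.61 over the 28 arrays, against 0.32, 0.54 and 0.33 for the others, and its r with the others lay from -0.27 to -0.21. The other probes had r values from 0.48 to 0.84 with one another.

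On the 21 myeloma arrays that were not wide, those 3 probes were below 0 on 15, 15 and 11 arrays and the divergent probe on 6. Their myeloma responses without the wide arrays were -0.21 (SE 0.11), -0.29 (SE 0.12) and -0.12 (SE 0.10), against 0.08 (SE 0.33) for the divergent probe. Averaged over those 3 probes, a choice made after the values were seen, CCND3 was -0.13 over the 8 myeloma courses (SD 0.20, n = 8), with 6 of 8 courses below 0; an exact sign-flip test on both sides gave p = 0.0859.

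CDK4 encodes one of the kinases that D cyclins activate. Its 2 probes had an r of 0.86 over the 28 arrays, the highest of any member. Against the control shRNA it was -0.32, -0.61, -1.07 and -0.26 on days 1 to 4 in SKMM1. Against uninduced SKMM1 cells it was -0.13, -0.41, -0.64 and -0.39 in repeat 1 (days 1 to 4) and -0.23, -0.12, -0.90 and -0.16 in repeat 3 (days 2 to 5). All 12 of these values were below 0.

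SKMM1 repeat 2 ran the other way, with CDK4 at 0.67, 0.26, 0.25 and 1.02 on days 2 to 5. The medians of those 4 arrays lay from -0.79 to -0.30, so CDK4 stood above 0 where most probes stood below it. On the same arrays the target CASP10 was -2.82, -1.19, -0.84 and -0.90, and a turned sign would place it above 0 on all 4. If the sign of that course were turned, CDK4 would be below 0 on all 12 SKMM1 arrays against uninduced cells, and the SKMM1 response would be -0.43 (SE 0.16, limma adjusted p = 0.176) in place of -0.17 (SE 0.23, adjusted p = 0.942). With the sign of repeat 3 turned in its place, the SKMM1 response would be 0.11 (SE 0.23, adjusted p = 0.793).

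In H929, CDK4 was 0.45, -0.08, -0.70 and -0.26 with shCasp10-3 (days 2 to 5), against 0.05, 0.18, -0.12 and -0.20 in repeat 1 (days 1 to 4) and 0.13, 0.08, 0.50 and 0.22 in repeat 2 (days 2 to 5) with shCasp10-2. In KMS12 it was -0.08, -0.36, -0.73 and -0.38 with shCasp10-3 (days 2 to 5), against 0.22, 0.09, -0.18 and -0.08 with shCasp10-2 (days 1 to 4). The lowest CDK4 value of both lines was thus on day 4 with shCasp10-3, and the ranges of the hairpins overlapped in both lines. On course means shCasp10-3 minus shCasp10-2 gave -0.26 for CDK4 (SE 0.38, limma adjusted p = 1), and -0.54 without the wide arrays (SE 0.25, adjusted p = 0.786). Without the wide arrays, H929 with shCasp10-3 rested on 1 array, day 4, at -0.70, where its mean over all arrays of days 2 to 4 was -0.11. In that comparison of hairpins limma called 0 of 7 members and 0% of features, with 172 features and 0 members at an unadjusted p under 0.05.

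Of the 21 myeloma arrays that were not wide, 17 had CDK4 below 0. Over their 7 courses CDK4 averaged -0.26 (SD 0.30, n = 7), with 6 of 7 courses below 0. The lowest of these courses, H929 with shCasp10-3 at -0.70, was 1 array of days 2 to 4. A two-sided exact sign-flip test over the 7 courses gave p = 0.0781, unadjusted over 7 members tested, where the smallest possible is 0.0156. Over all 8 courses CDK4 averaged -0.11 (SD 0.31, n = 8) and the exact sign-flip p was 0.367. With repeat 3 of SKMM1 turned the mean was -0.006, with 5 of 8 courses below 0 and an exact sign-flip p of 0.984. On the 10 wide myeloma arrays with a negative median, CDK4 was below 0 on 1 and its median was 0.24. In the lymphoma lines CDK4 was 0.15 and -0.52 in OCI-Ly7 (days 3 and 4) and -0.15 and -1.68 in OCI-Ly19 (days 3 and 4), the last being the lowest CDK4 value of the 40 arrays.

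CDK6 encodes the other cyclin D kinase, and it had the widest values of the set. In SKMM1 it was -0.16, 0.37, 0.13 and 0.28 on days 1 to 4 against the control shRNA. Against uninduced SKMM1 cells it was -0.31, -0.10, 0.25 and 0.09 in repeat 1 (days 1 to 4), -5.99, -2.94, -1.03 and -1.04 in repeat 2 (days 2 to 5), and 0.37, 2.16, 1.39 and 1.79 in repeat 3 (days 2 to 5). Repeats of the same line, hairpin and reference thus lay wholly below 0, on both sides of it and wholly above.

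In H929, CDK6 ranged from -3.70 to 0.12 over 12 arrays with a median of -0.29, and in KMS12 from -2.21 to 0.28 over 8 arrays with a median of -0.35. In the lymphoma lines it was above 0 on all 4 arrays, at 1.47 and 0.26 in OCI-Ly7 (days 3 and 4) and 0.36 and 0.49 in OCI-Ly19 (days 3 and 4). Of all probes 13.2% and 7.95% were above 3 on those OCI-Ly7 arrays, and 0.118% and 0.085% on those of OCI-Ly19.

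CDK6 moved with the arrays' tails. It was below 0 on 10 of 10 wide myeloma arrays with a negative median, from -5.99 to -1.03, and from 0.37 to 2.16 on the 4 arrays of SKMM1 repeat 3, whose medians lay from 0.08 to 0.36. On the 21 myeloma arrays that were not wide, its median was 0.02, with 10 below 0. Across the 32 myeloma arrays its r with the array median was 0.76, against 0.77 for CCND1, 0.33 for CCND3, 0.20 for CCND2, 0.26 for CDKN1B, 0.24 for RB1 and -0.40 for CDK4; these points share arrays and courses. The part of the tails in the CDK6 and CCND1 values was not tested.

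**Figure D2:**
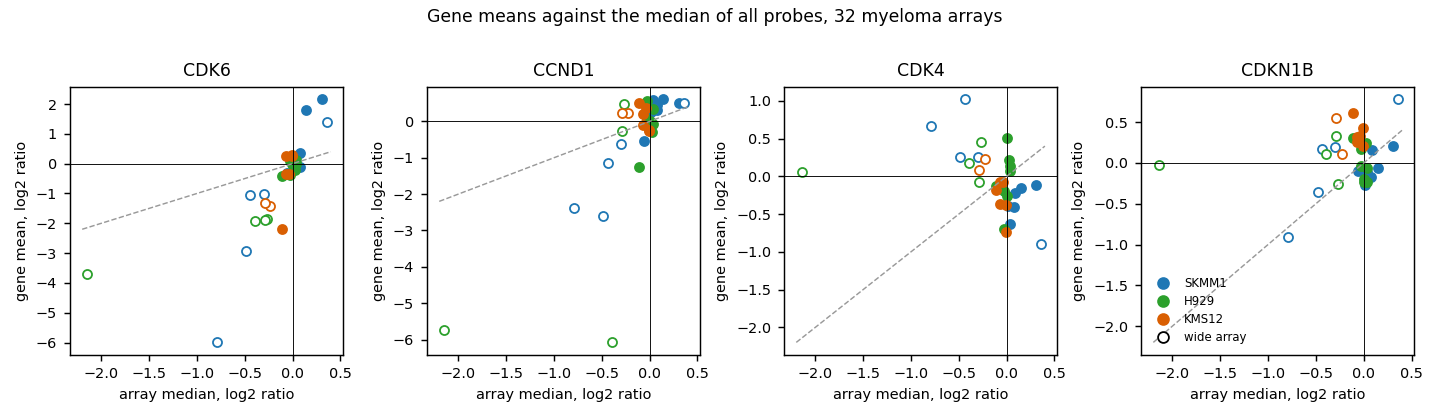
Gene means of CDK6, CCND1, CDK4 and CDKN1B (vertical axes, log2 ratio) against the median of all probes on the same array (horizontal axes, log2 ratio) for the 32 myeloma arrays, coloured by line, with wide arrays open and the dashed line marking equality. CDK6 and CCND1 reach -5.99 and -6.08 on open points with negative medians, while CDK4 is at or above 0.05 on all but 1 open point with a negative median.

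The 6 CDK6 probes differed, with SDs from 0.35 to 1.87 over the 28 arrays and pairwise r values from -0.29 to 0.75. The myeloma responses of the 3 probes with an SD over 1 were 0.53 (SE 0.62), -0.59 (SE 0.53) and 0.17 (SE 0.40) without the wide arrays. Those of the other 3 were -0.06 (SE 0.19), -0.05 (SE 0.11) and -0.21 (SE 0.13), closer together. The mean of these 3 quieter probes over the 7 courses without wide arrays was -0.10 (SD 0.28, n = 7). Probe by probe, limma called 0 of the 22 probes of all members on course means, with and without the wide arrays (0% of 15246 probes each), and 0 of 22 on single arrays with the course as a block, where 6.57% of probes passed.

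**Figure D3:**
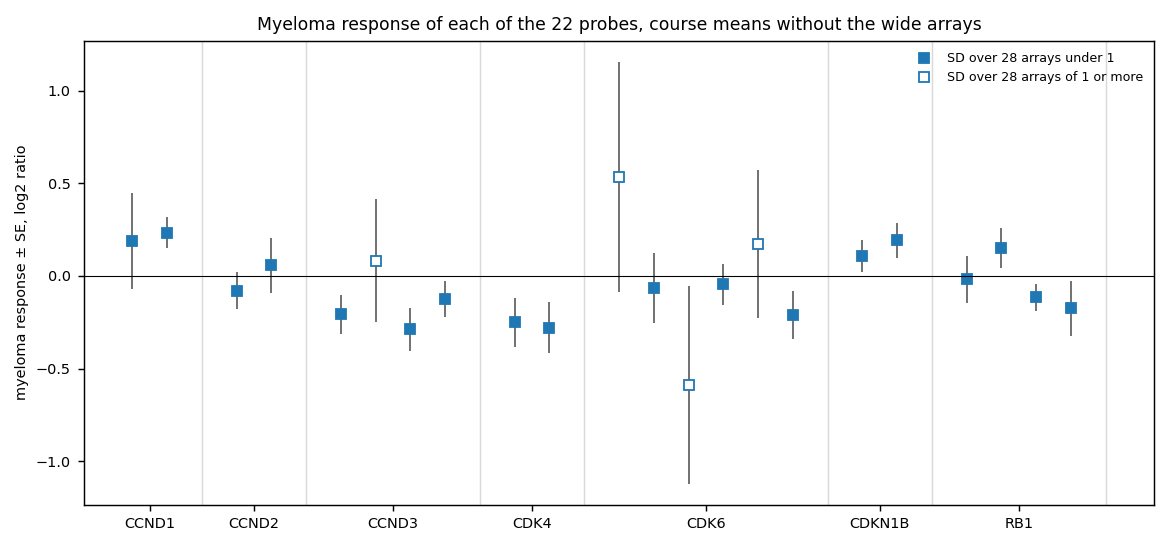
Myeloma response with its standard error (vertical axis, log2 ratio) for each of the 22 probes, grouped by gene, on course means without the wide arrays; open squares are probes with an SD of 1 or more over the 28 arrays. The probes of CDK4 lie together below 0, at -0.25 and -0.28, those of CDKN1B together above 0, at 0.11 and 0.19, and the 3 open CDK6 squares lie on both sides of 0.

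CDKN1B encodes p27, the inhibitor of cyclin-dependent kinases that holds cells in G1. It was above 0 on all 8 KMS12 arrays, at 0.32, 0.25, 0.42 and 0.21 with shCasp10-3 (days 2 to 5) and 0.10, 0.55, 0.61 and 0.32 with shCasp10-2 (days 1 to 4). It was below 0 on all 4 arrays against the control shRNA in SKMM1, at -0.15, -0.28, -0.12 and -0.39 on days 1 to 4, and on all 4 lymphoma arrays, at -0.23 and -0.36 in OCI-Ly7 (days 3 and 4) and -0.34 and -0.38 in OCI-Ly19 (days 3 and 4). The KMS12 values did not overlap those of either other set, which also held for RB1 among the members. Such separation was common over all features: 19.2% did not overlap between KMS12 and the control-shRNA arrays, and 13.6% between KMS12 and the lymphoma arrays.

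In SKMM1 against uninduced cells CDKN1B was -0.10, -0.17, -0.11 and -0.27 in repeat 1 (days 1 to 4), -0.91, -0.36, 0.20 and 0.17 in repeat 2 (days 2 to 5), and 0.16, 0.21, 0.78 and -0.06 in repeat 3 (days 2 to 5). In H929 it was -0.26, 0.32, 0.16 and -0.23 with shCasp10-3 (days 2 to 5), and -0.03, 0.11, 0.31 and -0.04 in repeat 1 (days 1 to 4) and -0.24, -0.06, -0.20 and 0.24 in repeat 2 (days 2 to 5) with shCasp10-2. Both lines lay on both sides of 0.

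In none of the comparisons reported here did CDKN1B pass. The KMS12 response was 0.41 on course means (SE 0.24, limma adjusted p = 1), where 0% of features were called and 77 had an unadjusted p under 0.05. On single arrays that were not wide it was 0.39 (SE 0.11, adjusted p = 0.298), where 0.0103% of features and 0 of 7 members passed and CCND2 and CDKN1B had an unadjusted p under 0.05. KMS12 minus lymphoma, a difference added after the values were seen, was 0.73 on course means of days 3 and 4 (SE 0.33, adjusted p = 0.878), where 0% of features were called and 378 had an unadjusted p under 0.05. Without the wide arrays it was 0.77 on course means (SE 0.25, adjusted p = 0.451) and 0.77 on single arrays (SE 0.21, adjusted p = 0.186), where 0.0103% of features passed. The 2 CDKN1B probes had an r of 0.46 over the 28 arrays and each was below 0 on 10 of the 21 myeloma arrays that were not wide.

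RB1 encodes the retinoblastoma protein, the substrate of the cyclin D kinases. Against the control shRNA it was -0.34, -0.76, -0.38 and -0.57 on days 1 to 4 in SKMM1. Against uninduced SKMM1 cells it was 0.10, -0.23, -0.20 and -0.21 in repeat 1 (days 1 to 4), -0.32, 0.16, 0.08 and 0.33 in repeat 2 (days 2 to 5), and -0.40, 0.51, 0.47 and 0.13 in repeat 3 (days 2 to 5). All values against the control shRNA were below 0, and values of the other SKMM1 arrays lay on both sides of it, with some overlap.

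RB1 was below 0 on 11 of 12 H929 arrays, from -1.48 to 0.13 with a median of -0.16, and above 0 on all 8 KMS12 arrays, from 0.01 to 0.52 with a median of 0.10. On course means of days 2 to 4, 80.7% of all features were below 0 in H929 and 71.5% in KMS12. The H929 count is thus near what most features showed in that line. The lowest H929 value was on the wide day 2 array with shCasp10-3. On the lymphoma arrays RB1 was -0.26 and -0.36 in OCI-Ly7 (days 3 and 4) and -0.77 and -1.02 in OCI-Ly19 (days 3 and 4), all below the KMS12 values.

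The H929 response of RB1 was -0.30 on course means (SE 0.18, limma adjusted p = 0.983), and H929 minus KMS12 was -0.40 (SE 0.29, adjusted p = 1). In both comparisons limma called 0 of 7 members and 0% of features; 151 features had an unadjusted p under 0.05 in H929 and 24 in H929 minus KMS12, with no member among them. Without the wide arrays the single-array fit of H929 minus KMS12 also called 0% of features and 0 of 7 members, but 267 features and 2 members had an unadjusted p under 0.05, CCND2 at -0.60 (SE 0.23) and CDKN1B at -0.39 (SE 0.15), each with a limma adjusted p of 0.999. On single arrays that were not wide, 0% of features and 0 of 7 members passed in H929 as well, with 598 features and 0 members at an unadjusted p under 0.05. RB1 had 4 probes with r values from -0.01 to 0.68, and their myeloma responses without the wide arrays were -0.02 (SE 0.13), 0.15 (SE 0.11), -0.11 (SE 0.07) and -0.17 (SE 0.15).

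In the lymphoma lines together, limma on course means of days 3 and 4 gave -0.60 for RB1 (SE 0.24, adjusted p = 0.575), -0.55 for CDK4 (SE 0.31), -0.33 for CDKN1B (SE 0.23), 0.73 for CCND1 (SE 0.51) and 0.65 for CDK6 (SE 0.80). It called 0 of 7 members and 0% of features, with 836 features and 1 member, RB1, at an unadjusted p under 0.05. Of all features 36.6% were below 0 in that fit, with a median of 0.19. In the single-array fit without the wide arrays, RB1 was -0.68 (SE 0.17, adjusted p = 0.0589), where 0.0516% of features passed and 0 of 7 members, with 4 members at an unadjusted p under 0.05. When those arrays were also centred on their medians, RB1 alone of the members passed, at -0.71 (SE 0.15, adjusted p = 0.0345), where 3.53% of features passed. Course means of the same centred arrays gave RB1 -0.67 (SE 0.19, limma adjusted p = 0.243), and 0 of 7 members and 0% of features passed there, with 1883 features and 3 members at an unadjusted p under 0.05.

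Myeloma minus lymphoma called 0 of 7 members on course means, where 0% of features were called and 654 features and 1 member, RB1, had an unadjusted p under 0.05. RB1 differed by 0.63 (SE 0.27, adjusted p = 0.639) and CDKN1B by 0.52 (SE 0.26, adjusted p = 0.639). On single arrays that were not wide the differences were 0.70 for RB1 (SE 0.19, adjusted p = 0.133) and 0.50 for CDKN1B (SE 0.18, adjusted p = 0.198), where 0.0103% of features and 0 of 7 members passed and both genes had an unadjusted p under 0.05. For KMS12 minus lymphoma RB1 was 0.78 on those arrays (SE 0.23, adjusted p = 0.189). The OCI-Ly7 arrays enter these values although their CASP10 ratio was above 0.

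The comparison with the control shRNA asks what remains when both channels hold doxycycline-treated SKMM1 cells. CCND2, CDK4, RB1 and CDKN1B were below 0 on all 4 of these arrays and CCND1 above 0 on all 4. These are days of 1 course, and the share of all features with 1 sign on all 4 was not counted. On the course mean of days 2 to 4, 46.9% of all features were below 0. The members' means over days 2 to 4 were -0.78 for CCND2, -0.65 for CDK4, -0.57 for RB1, -0.26 for CDKN1B, -0.17 for CCND3, 0.26 for CDK6 and 0.35 for CCND1. Set against 0 on course means, this single course gave 0 of 7 members called and 0% of features, with 321 features and 1 member, CCND2, at an unadjusted p under 0.05. On single arrays with the course as a block and without the wide arrays, CCND2 fell by 0.78 (SE 0.23, limma adjusted p = 0.0431) and RB1 by 0.57 (SE 0.17, adjusted p = 0.0463), so 2 of 7 members passed where 8.07% of features passed and 6.81% were called lower. CDK4 was -0.65 (SE 0.23, adjusted p = 0.103). With median-centred arrays the same 2 members passed, with adjusted p of 0.0312 for CCND2 and 0.0137 for RB1, and 9.93% of features passed.

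These calls rest on 3 arrays of 1 course, whose spread was taken to be like that of the other courses, and both were lost once SKMM1 repeat 3 entered with its sign turned (adjusted p = 0.274 for CCND2 and 0.234 for RB1). The test of the control-shRNA reference minus the uninduced reference in SKMM1 called 0 of 7 members on course means, where 0% of features were called and 52 features and 0 members had an unadjusted p under 0.05. The single-array differences without the wide arrays were -0.40 for CCND2 (SE 0.28), -0.30 for CDK4 (SE 0.29), -0.48 for RB1 (SE 0.21) and -0.24 for CDKN1B (SE 0.18), each with an adjusted p of 0.924 or above. The control arrays of days 2 to 4 had r values of 0.50, 0.65 and 0.72 over all probes with the same days of SKMM1 repeat 1, against -0.27, -0.37 and -0.26 with repeat 2 and 0.31, 0.46 and 0.12 with repeat 3. On day 1 the r with repeat 1 was -0.14, so the likeness did not hold on every day. The sources used here do not say whether the control arrays and repeat 1 share induced RNA.

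**Figure D4:**
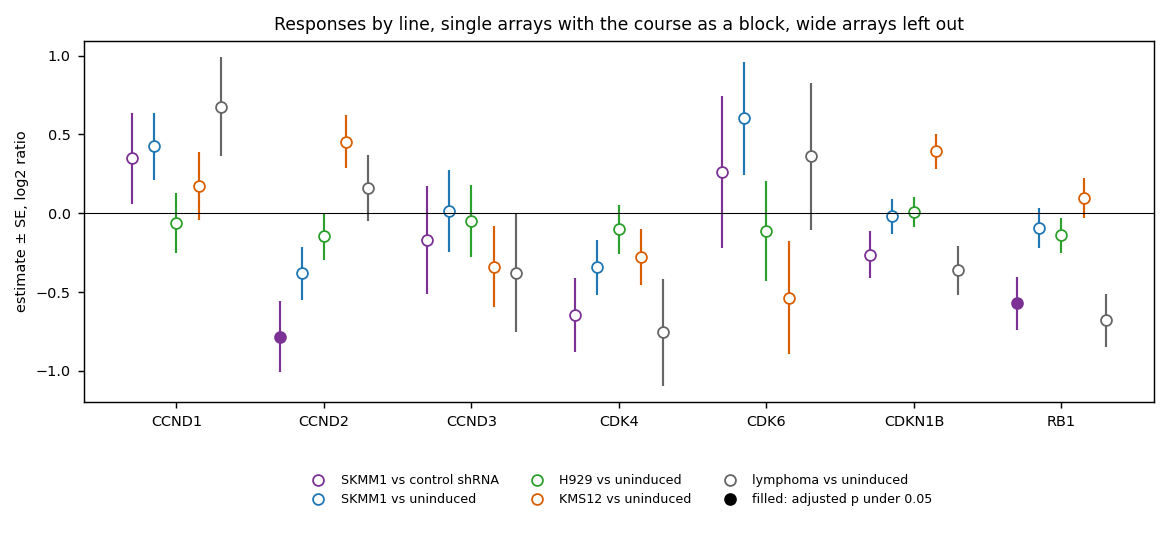
Estimates with standard errors (vertical axis, log2 ratio) for the 7 genes in SKMM1 against the control shRNA, SKMM1, H929, KMS12 and lymphoma lines against uninduced cells, from single arrays with the course as a block and without the wide arrays; filled points passed the adjusted threshold of 0.05. The filled points are CCND2 and RB1 against the control shRNA, and KMS12 is the highest of the 5 groups for CCND2, CDKN1B and RB1.

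Within SKMM1 against uninduced cells, 0 of 7 members passed on course means, where 0% of features were called and 246 features and 0 members had an unadjusted p under 0.05. On single arrays that were not wide, 16.2% of all features passed and 0 of 7 members, 1 of which, CCND2, had an unadjusted p under 0.05. The estimates had CCND2 at -0.38 (SE 0.17, limma adjusted p = 0.124), CDK4 at -0.34 (SE 0.18, adjusted p = 0.179), CCND1 at 0.42 (SE 0.21, adjusted p = 0.176) and CDK6 at 0.60 (SE 0.36, adjusted p = 0.248). Days 2 and 3 of repeat 3, kept in that fit, had 5.48% and 7.48% of all probes above 3. Days 2 to 4 of repeat 1 had 0.18%, 0.05% and 0.09%. The part of this positive tail in the estimates was not tested. Turning the sign of repeat 3 in that fit left CCND2 at -0.03 (SE 0.23), CDK4 at -0.18 (SE 0.22), CCND1 at 0.05 (SE 0.27) and CDK6 at -0.54 (SE 0.43), each with an adjusted p of 1, so CDK6 changed direction. Limma then called 0% of features and 0 of 7 members, with 402 features and 0 members at an unadjusted p under 0.05. SKMM1 minus H929 on course means called 0 of 7 members and 0% of features, with 40 features and 0 members at an unadjusted p under 0.05.

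With time, 6 of 7 members had a change per day above 0, while 21.7% of all features were below 0 and the median of all features was 0.25. The change per day over days 2 to 4, fitted within each course, was 0.67 for CDK6 (SE 0.28), 0.42 for CCND1 (SE 0.37), 0.33 for CCND2 (SE 0.16), 0.29 for CCND3 (SE 0.11), 0.15 for RB1 (SE 0.12), 0.10 for CDKN1B (SE 0.10) and -0.19 for CDK4 (SE 0.12). limma called 0 of 7 members and 0% of features, with 1066 features and 1 member, CCND3, at an unadjusted p under 0.05. Wide arrays were more frequent early: 4 of the 8 arrays of day 2 were wide, against 2 of 8 on day 3 and 2 of 8 on day 4. Without the wide arrays the change per day was 0.76 for CDK6 (SE 0.33), 0.56 for CCND3 (SE 0.27), 0.17 for CCND1 (SE 0.21), -0.08 for CCND2 (SE 0.12) and 0.00 for CDK4 (SE 0.12), with every adjusted p at 0.612 or above. SKMM1 repeat 3, H929 repeat 1 and KMS12 with shCasp10-2 then had 2 arrays each, and H929 with shCasp10-3, with 1, gave no slope. Over arrays that were not wide, the means of days 2, 3 and 4 were -0.03, 0.03 and -0.04 for CDK6 and -0.16, -0.32 and 0.13 for CCND3.

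Over the 21 myeloma arrays that were not wide, CCND2, CDKN1B and RB1 ranged together, with r values of 0.61 between CCND2 and CDKN1B, 0.59 between CDKN1B and RB1 and 0.53 between CCND2 and RB1. CCND3 and CDK6 had an r of 0.51, and CDKN1B had negative values with both, at -0.51 with CCND3 and -0.52 with CDK6. CDK4 had r values from -0.34 with CCND1 to 0.09 with CCND3, so it was not close to any other member. These values describe arrays that share lines, courses and the arrays' tails, and carry no test.

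Among all named genes, the nearest patterns on those 21 arrays were RPL13 (r = 0.90) and PPP2R5D (r = 0.88) for CDK4, ZFAND3 (r = 0.95) and CD274 (r = 0.95) for CDK6, and BMI1 (r = 0.85) and PPP2R5A (r = 0.83) for CDKN1B. For CCND2 they were RPS12 (r = 0.87) and ZFAND5 (r = 0.83), for CCND3 WT1-AS (r = 0.86) and ASB4 (r = 0.83), for CCND1 ARHGAP25 (r = 0.81) and UBA7 (r = 0.79), and for RB1 STAU2 (r = 0.80) and RBL2 (r = 0.77). RBL2, the relative of RB1 known as p130, is the only one of these that belongs to the G1 lists described next. Here r is Pearson's over array-centred gene means, and each gene was picked as the highest of all named genes.

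Genes that act beside the members were read from a list of 26 G1 to S partners, of which 19 were measured. In the myeloma response on course means 16 of 19 were below 0 with a median of -0.20, and 0 passed. Of all features 81.3% were below 0, with a median of -0.27. Among the single arrays that were not wide, 11 of 19 were below 0, with a median of -0.12 against 0.01 for all features, and 0 passed. In that fit 47.8% of all features were below 0. The genes with the smallest p on course means were E2F4, a repressive E2F, at -0.31 (SE 0.13), CDK2, the kinase of cyclins E and A, at -0.38 (SE 0.17), and RBL2 at -0.38 (SE 0.17), each with a limma adjusted p of 0.682. CDK2 was below 0 in 8 of 8 myeloma courses, but in 6 of 7 without the wide arrays.

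E2F target genes act downstream of RB1, and 19 of a list of 25 were measured. On course means 15 of 19 were below 0 with a median of -0.09, and 0 passed. Of all features 81.3% were below 0 there, with a median of -0.27. With all arrays kept and each centred on its median, 9 of 19 targets were below 0, as were 68.9% of all features. On single arrays that were not wide, 14 of 19 were below 0 with a median of -0.14. Of all features 47.8% were below 0 in that fit, with a median of 0.01. There 3 of 19 targets were called lower, where 3.46% of all features were called lower. They were MCM2, a subunit of the replicative helicase, which fell by 0.38 (SE 0.07, limma adjusted p = 0.00938), MYBL2, a cell cycle transcription factor, which fell by 0.44 (SE 0.10, adjusted p = 0.0255), and MCM7, another helicase subunit, which fell by 0.30 (SE 0.07, adjusted p = 0.0275). DNMT1, the maintenance DNA methyltransferase, was -0.18 (SE 0.08, adjusted p = 0.173).

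MYBL2 was below 0 in 7 of 8 courses, and in 7 of 7 without the wide arrays. MCM2 was below 0 in 5 of 8 and 6 of 7, and MCM7, with 1 probe, in 6 of 8 and 6 of 7. On course means of all arrays 81.3% of all features had an estimate below 0. Counts without the wide arrays come from the arrays that gave the calls, so they are no separate support. None of the 3 calls held on course means without the wide arrays (adjusted p = 0.257 for MCM2, 0.257 for MYBL2 and 0.278 for MCM7), nor with the sign of SKMM1 repeat 3 turned (adjusted p = 0.46 for MCM2, 0.521 for MYBL2 and 0.484 for MCM7), under which 0 of all features passed. In the lymphoma lines on single arrays that were not wide the same genes were -0.74 (SE 0.20) for MCM2, -1.0 (SE 0.34) for MYBL2 and -1.01 (SE 0.31) for MCM7, with adjusted p from 0.0713 to 0.104.

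**Figure D5:**
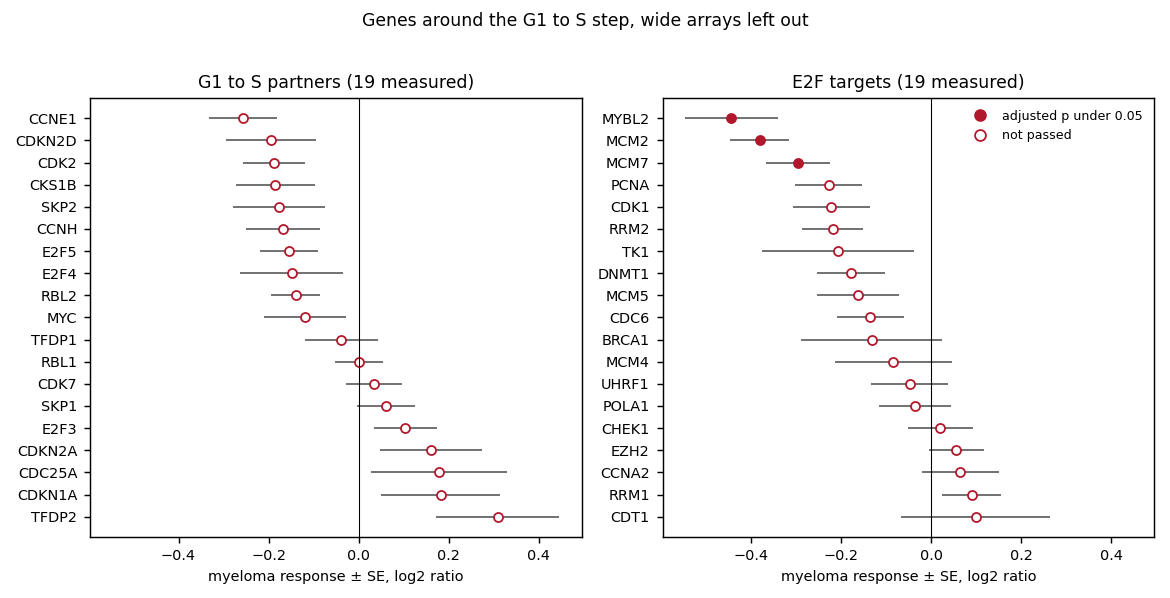
Myeloma response with its standard error (horizontal axis, log2 ratio) for the 19 measured G1 to S partners, left, and the 19 measured E2F targets, right, from single arrays with the course as a block and without the wide arrays. Filled points passed the adjusted threshold of 0.05 and are MYBL2, MCM2 and MCM7. Below 0 lie 11 partners and 14 targets, as do 47.8% of all features.

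Marker genes of other cell types can only be read as ratios here. In the myeloma response without the wide arrays, 8 of 8 T and NK cell markers were below 0 with a median of -0.22. Of all features 46.9% were below 0 there, with a median of 0.02. By line, the median of the T and NK cell markers was -0.33 in SKMM1, -0.03 in H929 and -0.14 in KMS12. Of plasma cell markers 4 of 5 were below 0 in the myeloma response, with a median of -0.09. Of mature B cell markers 1 of 3 was below 0, and of myeloid markers 1 of 2. None of these lists had a member called in this fit by limma. Their part in the members' values was not tested.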

How the data were processed

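The deposited table held 1 log ratio for each of 15246 probes on 40 two-colour arrays, with 0 missing values, rounded to 3 decimals. The values are read as log2 ratios that the authors computed; for the scanner, background correction, normalization, log base and genome build, the entry is "not given in the sources used here". Per the labels' protocols, 50 µg of total RNA was labelled with Cy5 (induced cells) or Cy3 (uninduced or control-shRNA cells). The direction Cy5 over Cy3 is the likely one from the design text.

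Probes were named through the platform's probe table, which paired 10169 probes with 1 symbol and 4 with several and did not list 5073; the 10128 probes matched by Entrez number to RefSeq changed 0 symbols. Probes of a gene were averaged, which gave 9681 features, unnamed probes included. Log ratios were averaged over days 2 to 4 of a course (days 3 and 4 for comparisons with lymphoma). limma 3.58.1 (lmFit, eBayes; R 4.3.3) was fitted on course means with Benjamini-Hochberg adjustment over all features and a threshold of 0.05. Exact sign-flip tests were run per member over courses. Single arrays with the course as a random block used duplicateCorrelation. Python 3.11.15, numpy 2.4.6, pandas 2.3.3, scipy 1.17.1 and matplotlib 3.10.9 were used otherwise.

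The members and lists were chosen with earlier results of these data known. Genes named were the members, CASP10, the 2 nearest patterns of each member, and from each G1 list those that passed and the 3 with the smallest p. Repeat 1 of SKMM1 and of H929 share only a number, with a correlation of deviations of -0.603, and are different lines, so they were not paired. Tested on simulated data of 9681 features, the myeloma fit on course means recovered 48% of shifts of 1 and 100% of shifts of 2 with all arrays, and 76% and 100% without the wide arrays; the single-array fit without the wide arrays recovered 84% and 100%. The simulated noise was normal and independent between features, with each array's own SD. It held no shared tails and no course of turned sign. The shifts were larger than any member's estimate of the myeloma response, so these rates do not give the power for the members. Alternatives changed the arrays used, the centring, the unit of the fit, array weights, the sign of 2 SKMM1 courses, the summary over probes, the days and each course in turn.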

Additional observations from a re-analysis of the deposited data

Results flagged for a closer look

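The CCND2 course mean of KMS12 with shCasp10-3 stood apart from the other 7 myeloma courses, at 0.428 against values from -0.47 to -0.05. Its gap to the nearest course took 0.528 of the whole range of 8 courses. This was 1 of 14 groups of course means examined, and chance flags about 1 in 20 groups. None of the 4 arrays of that course was wide. The other KMS12 course, with shCasp10-2, had a CCND2 mean of -0.06, and 0.49 without its wide arrays.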

How the results depend on the processing

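Over 23 alternatives each, CDK4 ranged from -0.28 to -0.03 in the myeloma response (lowest limma adjusted p = 0.12) and CDKN1B from 0.04 to 0.22 (lowest 0.242), and neither changed sign. CCND1 changed sign, to 0.21 without the wide arrays, 0.20 when these were also median-centred, 0.18 on single arrays with replicate block without the wide arrays, 0.17 when these were also median-centred, 0.061 with the sign of SKMM1 repeat 3 turned there, and 0.13 with the sign of SKMM1 repeat 2 turned on course means. That last setting also turned CCND3 to 0.006 and CDK6 to 0.086. CCND2 turned to 0.10 on single arrays with replicate block without the wide arrays and with repeat 3 turned, and RB1 to 0.027 with median-centred arrays.

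With the replicate block, which joins the days of a course, and all arrays kept, 0 members were called in each comparison. Without the wide arrays the block called 2 members, CCND2 and RB1, against the control shRNA, and also 2 when median-centred, where it called 1 in SKMM1 minus KMS12 (CCND2) and 1 in the lymphoma lines (RB1). The exact sign-flip test passed 0 members over 8 courses, between 0 and 1 when a course was left out (CCND2 without KMS12 shCasp10-3, mean -0.26, 7 of 7 courses below 0, p = 0.0156) and 1 with SKMM1 repeat 3 turned (CCND3, mean -0.33, p = 0.0469). Causes were not tested. The other 328 counts of called members stayed at 0. Without scanner intensities, signal over background could not be used here. The centred fits without the wide arrays on course means, the control-shRNA and KMS12 minus lymphoma comparisons, the choice by probe SD and the single-array fit with repeat 3 turned were chosen after seeing the data.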

Other observations

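Of the G1 to S partners in the comparison with the control shRNA, 4 of 19 were called lower and 0 higher on single arrays with the course as a block and without the wide arrays, and 3 of 19 E2F targets were called lower and 0 higher; of all features 6.81% were called lower there. With all arrays kept, that fit called 14 features, and 23 with the sign of SKMM1 repeat 3 turned and the wide arrays left out. On course means 0 of either list passed. In the lymphoma lines 18 of 19 E2F targets were below 0 in the single-array fit without the wide arrays, with a median of -0.32, and 0 of them passed. Of all features 41.5% were below 0 there, with a median of 0.11. Among marker genes of T and NK cells, which lie outside the studied lineages, 6 of 8 were below 0 against the control shRNA with a median of -0.52, and 2 were called lower in the same single-array fit without the wide arrays, beside the 6.81% of all features. Of all features 46.9% were below 0 against the control shRNA in that fit, with a median of 0.04.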
